A study of Xenopus laevis with 5 samples.

Results

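The genes described here carry names of proteins of the cytosolic ribosome or of their relatives. They were taken by name from the single gene symbol that the array annotation gives a probe set: rpl or rps with a number, rpsa, or rplp with a number, without the rps6k kinases. That left 74 genes with 94 probe sets, of 7530 genes with 9303 single-symbol probe sets and 15490 probe sets in all. Of the 74 genes, 47 fall by name to the large subunit and 27 to the small subunit. Among them rpl22l1.L, rpl7l1.L, rpl3l.L and rps28p9.S were not counted as core subunit genes, which leaves 70 core genes. All 74 had values on all 5 arrays, and no filter on low values was applied.

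A ribosome is built from a large and a small subunit, each of them ribosomal RNA and a fixed set of proteins, most of them present in a single copy. In vertebrates the mRNAs of these proteins share a tract of pyrimidine bases at the very start, through which the growth signal of the mTOR kinase sets their translation as a group. In Xenopus embryos they accumulate before they are fully used, and large maternal stores of finished ribosomes carry the early embryo. Cycloheximide, the inhibitor used in this study, stops translation by binding the large subunit.

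The samples were explants of Xenopus laevis ectoderm, made neural with noggin, an antagonist of BMP signals. The zic1 group (2 arrays) came from embryos given a hormone-inducible zic1 together with noggin at the stage of 2 cells, and the control group (3 arrays) from embryos given beta globin together with noggin. Zic1 regulates transcription in the early neural plate and binds DNA through zinc fingers. All explants were cut at stage 9, kept to the equivalent of stage 12, given cycloheximide for 30 min and then dexamethasone, which releases the injected zic1, and taken 3 h later, so all groups carry noggin, the inhibitor and the hormone. As zic1 was supplied by injection at the stage of 2 cells, it need not be limited to cells that normally make it. The labels call the arrays of a group biological replicates without naming embryos or days, so a p-value here speaks of the spread among these arrays, part of which may be technical.

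Each value is the ratio of a probe set to its own median over the 5 arrays, so a ratio of 1 is the level in the middle array. Levels can be compared between arrays but not between genes, and whether a marker was present at all cannot be read. A probe set of zic1.S read 5.28 and 5.07 with zic1 against 1.00, 0.965 and 0.699 in the controls. A second one read 1.68 and 1.76 against 1.00, 0.907 and 0.815. Genes of the neural plate had a median log2 ratio of 0.33 and 0.27 with zic1, against between -0.16 and 0.00 in the controls. Of 15 such genes 3 rose past the threshold (limma), against 1.26% of all genes. Their log2 differences, zic1 minus control, ran from -0.58 to 1.66, with 2 of the 15 negative, against 56.1% of all genes. Lists of other tissues were uneven between arrays: cement gland genes stood at 0.49 in control replicate 2, endoderm genes at 0.43 in control replicate 3, and mesoderm and muscle genes at 0.14 and 0.45 in the zic1 arrays against -0.13 to 0.00 in the controls, with 5 of 15 genes past the threshold as higher (limma), against the same 1.26%. For epidermis the array medians ran from -0.04 to 0.02, and for multiciliated cells and ionocytes from -0.18 to 0.05. The 13 epidermis genes differed among themselves, with log2 differences, zic1 minus control, from -2.08 to 0.92. Both zic1 arrays lay above all controls in 6 of them and below in 2, against 17.3% and 24.8% of all genes, and 0 passed the threshold (limma). The part of tissue makeup in the ribosomal values was not tested, and in whole explants fewer cells of a type and less RNA per cell cannot be told apart. Exactly equal values tied zic1 replicate 1 to control replicates 1 and 2 (246 probe sets equal in all 3, against 0 to 9 for any other 3 arrays), a grouping found in the values and stated by no label. These 3 arrays and the 2 left over, zic1 replicate 2 and control replicate 3, are called the 2 array sets. Counts of probe sets equal in 2 arrays at values other than 1 set this grouping apart less clearly. They were 96 for control replicates 1 and 2, and 31 for the 2 zic1 arrays, which lie in different sets. Zic1 replicate 1 had 26 with control replicate 1 and 8 with control replicate 2.

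Ribosomal protein transcripts were lower in the zic1 explants almost throughout the family. Zic1 minus control, 72 of 74 genes had a negative log2 difference, against 56.1% of all genes, and the median was -0.44 (73.9% of control), against -0.03 for all genes. Over the 70 core genes the median was -0.45, with 68 negative. Single genes seldom passed after adjustment: 1 gene, rpl18.S, fell past an adjusted p of 0.05 and 0 rose (limma). Of all genes 0.664% passed as lower and 1.26% as higher. At an unadjusted p under 0.05, 51 of the 74 genes were lower and 0 higher (limma). At the unadjusted threshold 13.7% of all genes were lower. In 55 of the 74 genes both zic1 arrays lay below all 3 controls, against 24.8% of all genes, and in 1 gene both lay above, against 17.3% of all genes. By probe sets, 1 of 94 passed as lower and 0 as higher, against 0.316% and 1.1% of all, and 57 at the unadjusted threshold, against 10.3% of all, with 68 wholly below the controls, against 19.4% of all. The 74 genes were named with earlier results of these data known, and their probe sets share arrays, so the counts describe the family and are no test of it.

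**Figure D1:**
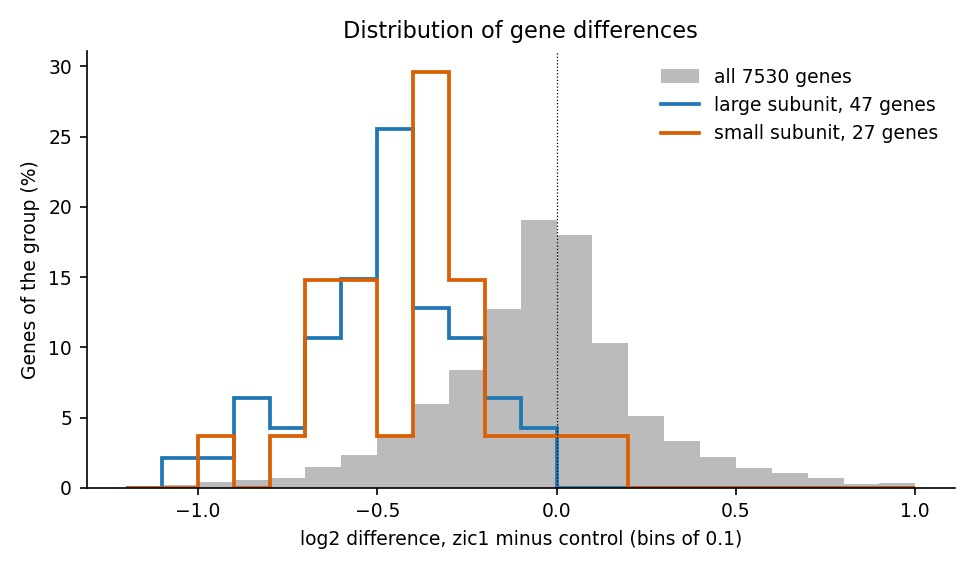
Share of genes (y axis, percent of each group) by log2 difference, zic1 minus control (x axis, bins of 0.1, shown from -1.2 to 1.0). Grey bars are all 7530 genes with 1 symbol, the blue line the 47 large subunit genes and the orange line the 27 small subunit genes, whose medians lie at -0.46 and -0.34.

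The arrays formed a gradient shared by most members. The median ratio over the 74 genes was 0.769 in zic1 replicate 1, 0.910 in zic1 replicate 2, 1.00 in control replicate 1, 1.20 in control replicate 2 and 1.17 in control replicate 3. Zic1 replicate 1 was the lowest array for 67 genes, against 30.7% of all genes, and control replicate 1 was the middle array for 67 of 94 probe sets, against 30.3% of all probe sets. Control replicate 1 was the lowest of the controls in 68 genes, with control replicate 2 the highest in 46 and control replicate 3 in 26.

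By these medians both zic1 arrays lay below the controls, but neither group was tight. The groups overlapped in 18 of the 74 genes, against 4361 of all 7530 genes. The log2 medians of zic1 replicate 2 (-0.14) and control replicate 1 (0.00) were closer than those of the 2 zic1 arrays (-0.38 and -0.14). They were also closer than those of control replicates 1 and 2 (0.00 and 0.26). The controls spanned a median of 0.33 (log2) per member, against 0.25 over all genes, and the zic1 pair 0.25, against 0.10. In 22 members the span of the controls was wider than the difference between the groups. Signed log2 differences were correlated across genes, zic1 replicate 2 minus 1 with control replicate 2 minus 1. Pearson's r was 0.58 across the 74 genes, against 0.39 across all genes. With control replicate 3 in place of 2 it was 0.22 and 0.21. These are correlations across genes measured on the same arrays, which are not independent replicates.

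**Figure D2:**
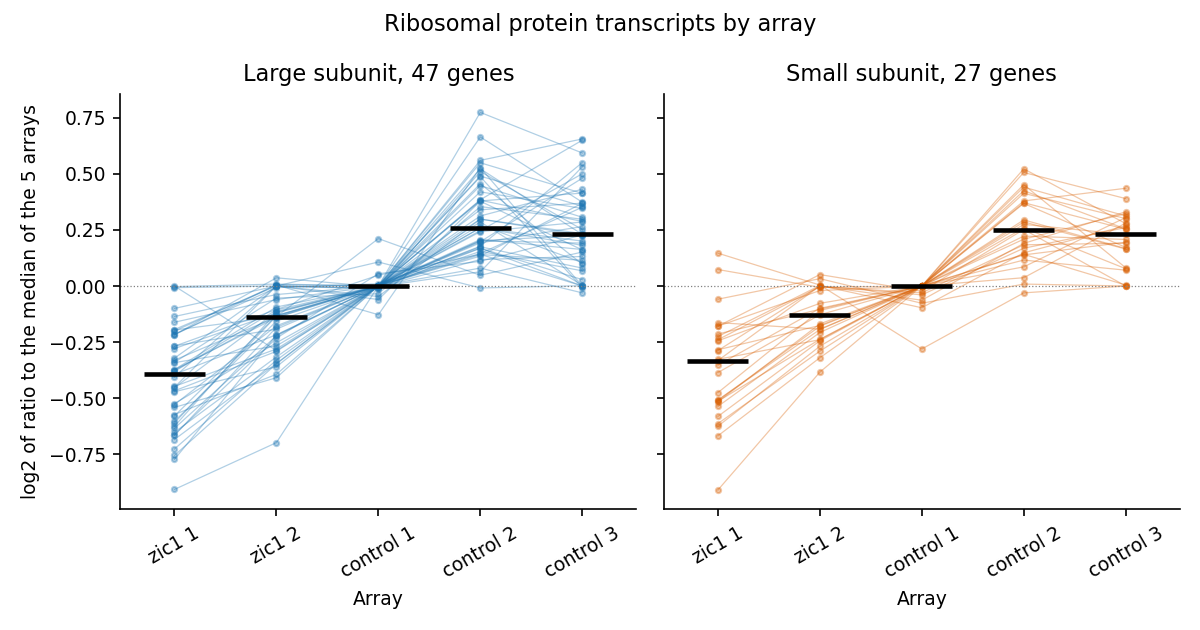
Log2 ratio to the median of the 5 arrays (y axis) for each ribosomal protein gene on each array (x axis), large subunit left and small subunit right. A thin line joins the points of 1 gene and implies no order of the replicates. Black bars are array medians, which run from -0.39 to 0.26 for the large and from -0.33 to 0.25 for the small subunit.

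Within each array set the difference kept its sign for most members. The median was -0.53 between zic1 replicate 1 and control replicates 1 and 2, and -0.36 between zic1 replicate 2 and control replicate 3, with medians over all genes of -0.03 and -0.02. Of the 74 genes, 72 were lower in the first set and 68 in the second, and 67 in both, against 39.6% of all genes. The sets were found in these same values. In the 55 members with both zic1 arrays below all controls, the sign is bound to be negative in both sets. These counts are therefore no separate check of the difference between the groups. Array probe sets for the 3′ and 5′ ends of actin and glyceraldehyde phosphate dehydrogenase transcripts gave one comparison of RNA integrity between arrays. Their values too are ratios to the median of each probe set, so how intact the RNA was cannot be read. The log2 ratio of the 3′ over the 5′ value, averaged over these 4 transcripts, was 0.095 and 0.12 with zic1 against -0.046, -0.19 and 0.024 in the controls. The zic1 arrays were above the controls in this mean, and control replicate 2, with the highest median of the ribosomal genes, had the lowest. Within each group other arrays did not follow this order. Zic1 replicate 1 had the lower ribosomal median of the zic1 pair and also the lower mean. Control replicate 3 had a higher ribosomal median than control replicate 1 and also a higher mean. In 2 of the 4 transcripts the groups overlapped: control replicate 3 was the highest array for beta actin (0.42 against 0.23 and 0.40 with zic1), and one alpha actin read 0.039 in control replicate 1 against -0.0043 in zic1 replicate 2. The part of RNA integrity in the result was not tested.

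In the large subunit, all 47 genes had a negative difference, from -1.04 to -0.01 with a median of -0.46, against 56.1% negative of all genes. In 36 both zic1 arrays lay below the controls, against 24.8% of all genes. The lowest was rpl18.S, a structural protein of the subunit. It read 0.533 and 0.616 with zic1 against 1.00, 1.27 and 1.29 in the controls. The groups were far apart in this gene, with each control closer to the other controls than to any zic1 array. Its log2 difference was -1.04 ± 0.15 (SE; adjusted p = 0.0387 over genes and 0.0481 over probe sets, limma), or 48.6% of control. The call was lost without any 1 of the 5 arrays (adjusted p from 0.0558 to 0.447, with log2 differences from -1.16 to -0.94) and with the array sets as a block (-1.07, adjusted p = 0.0605).

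Next came rpl22l1.L, the paralogue of rpl22, which can take its place in the ribosome. It read 0.604 and 0.795 with zic1 against 1.00, 1.71 and 1.51 in the controls, a difference of -0.99 ± 0.26 (adjusted p = 0.107, limma). Rpl22.S itself read 0.860 and 1.00 against 1.00, 1.40 and 0.995. The groups overlapped in rpl22.S, with control replicate 2 standing above the other 4 arrays, and its difference was -0.27 ± 0.18 (adjusted p = 0.442, limma).

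Genes of proteins around the site of peptide bond formation had unlike values, and the differences between these genes were not tested. Rpl8.S, which lies at the core of that site, read 0.592 and 0.786 with zic1 against 1.00, 1.41 and 1.28 in the controls (-0.83 ± 0.19, adjusted p = 0.0872, limma). Rpl3.L, which also reaches towards it, differed by -0.30 ± 0.09 (adjusted p = 0.119, limma), nearer to 0 than the median member. This was the mean of probe sets at -0.51 and -0.10. The ID of the first has the letter S before its last number and that of the second the letter A. Rpl10.S, which joins the subunit late and completes it, read 0.733 and 0.823 against 1.00, 1.11 and 1.28. Its difference was -0.53 ± 0.13 (adjusted p = 0.0968, limma), from a probe set with the letter A. No zic1 array overlapped a control in these 3 genes.

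In yeast, mutations in the counterparts of rpl27a and rpl36a make ribosomes resistant to cycloheximide, the drug given to all explants here. Rpl27a.L read 0.585 and 0.859 with zic1 against 1.00, 1.59 and 1.30 in the controls, a difference of -0.84 ± 0.25 (adjusted p = 0.126, limma). Rpl36a.L read 0.933 and 1.00 with zic1 against 0.994, 1.12 and 1.02 in the controls (-0.11 ± 0.09, adjusted p = 0.522, limma). The groups were apart in rpl27a.L and overlapped in rpl36a.L.

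Proteins that line the tunnel through which the new chain leaves include rpl4, rpl17 and rpl39. Rpl4.L differed by -0.60 ± 0.20, rpl39.L by -0.64 ± 0.20 and rpl17.S by -0.48 ± 0.14, all without overlap of the groups and without passing (adjusted p = 0.160, 0.144 and 0.127, limma). Rpl5 and rpl11, which bind the smallest RNA of the large subunit and, when free in human cells, hold back the p53 ligase MDM2, differed by -0.67 ± 0.15 (rpl5.L), -0.51 ± 0.16 (rpl5.S) and -0.44 ± 0.11 (rpl11.S), with adjusted p of 0.0784, 0.144 and 0.0968 (limma). Rpl7a.S (-0.83 ± 0.24) and rpl24.L (-0.75 ± 0.22), the latter part of a bridge to the small subunit, did not pass either (adjusted p = 0.118 and 0.123, limma). Rpl7a.S was read by 1 probe set, whose ID ends in _x_at, and had no value in the alternative without such probe sets. Rpl24.L read 0.630 and 0.880 with zic1 against 1.00, 1.46 and 1.33 in the controls.

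The stalk of the large subunit, made of rplp0, rplp1 and rplp2, recruits the GTPases that drive translation. Rplp0.S, its base, read 0.894 and 0.959 with zic1 against 1.00, 1.13 and 1.47 in the controls (-0.35 ± 0.17, adjusted p = 0.297, limma). Rplp1.L read 0.910 and 0.974 against 1.00, 1.097 and 1.29 (-0.25 ± 0.13, adjusted p = 0.309, limma). In both, the groups were apart but the controls spread more widely than the groups differed. The copies of rplp2 are described with the other gene copies.

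Further members of the large subunit stood close to the threshold. Rpl21.L had the smallest adjusted p after rpl18.S, at 0.687 and 0.753 with zic1 against 1.00, 1.13 and 1.06 in the controls (-0.56 ± 0.09, adjusted p = 0.0559, limma). Rpl27.S, distinct from rpl27a, read 0.723 and 0.817 against 1.00, 1.11 and 1.05 (-0.45 ± 0.10, adjusted p = 0.0774, limma). Rpl15.L (-0.57 ± 0.12) and rpl10a.S (-0.69 ± 0.15) were likewise wholly below the controls, with adjusted p of 0.0788 and 0.0764 (limma). The groups overlapped in rpl7.L (0.755 and 1.00 against 0.959, 1.30 and 1.12) and in rpl23.S (0.800 and 1.00 against 0.991, 1.43 and 1.19), where zic1 replicate 2 lay above control replicate 1.

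The large subunit members nearest to no difference were rpl28.L (-0.01 ± 0.08), rpl3l.L (-0.04 ± 0.08), a paralogue of rpl3 known from mammalian muscle, and rpl36a.L. Rpl28.L read 0.998 and 1.01 with zic1 against 1.00, 1.06 and 0.979 in the controls. Rpl3l.L read 0.995 and 1.00 against 1.08, 0.994 and 1.00. In both genes the 5 arrays lay close together. Both were read by a probe set with the letter A, and rpl36a.L by one with the letter S. As absolute signal was not kept, a steady transcript and a probe set with little signal cannot be told apart. Rpl7l1.L, a protein related to rpl7, read 0.830 and 0.930 against 1.03, 1.103 and 1.00 (-0.25 ± 0.09, adjusted p = 0.193, limma). Rpl38.L, which in the mouse is needed for the translation of some Hox mRNAs, gave -0.37 (letter S) and 0.03 (letter A) in its 2 probe sets.

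**Figure D3:**
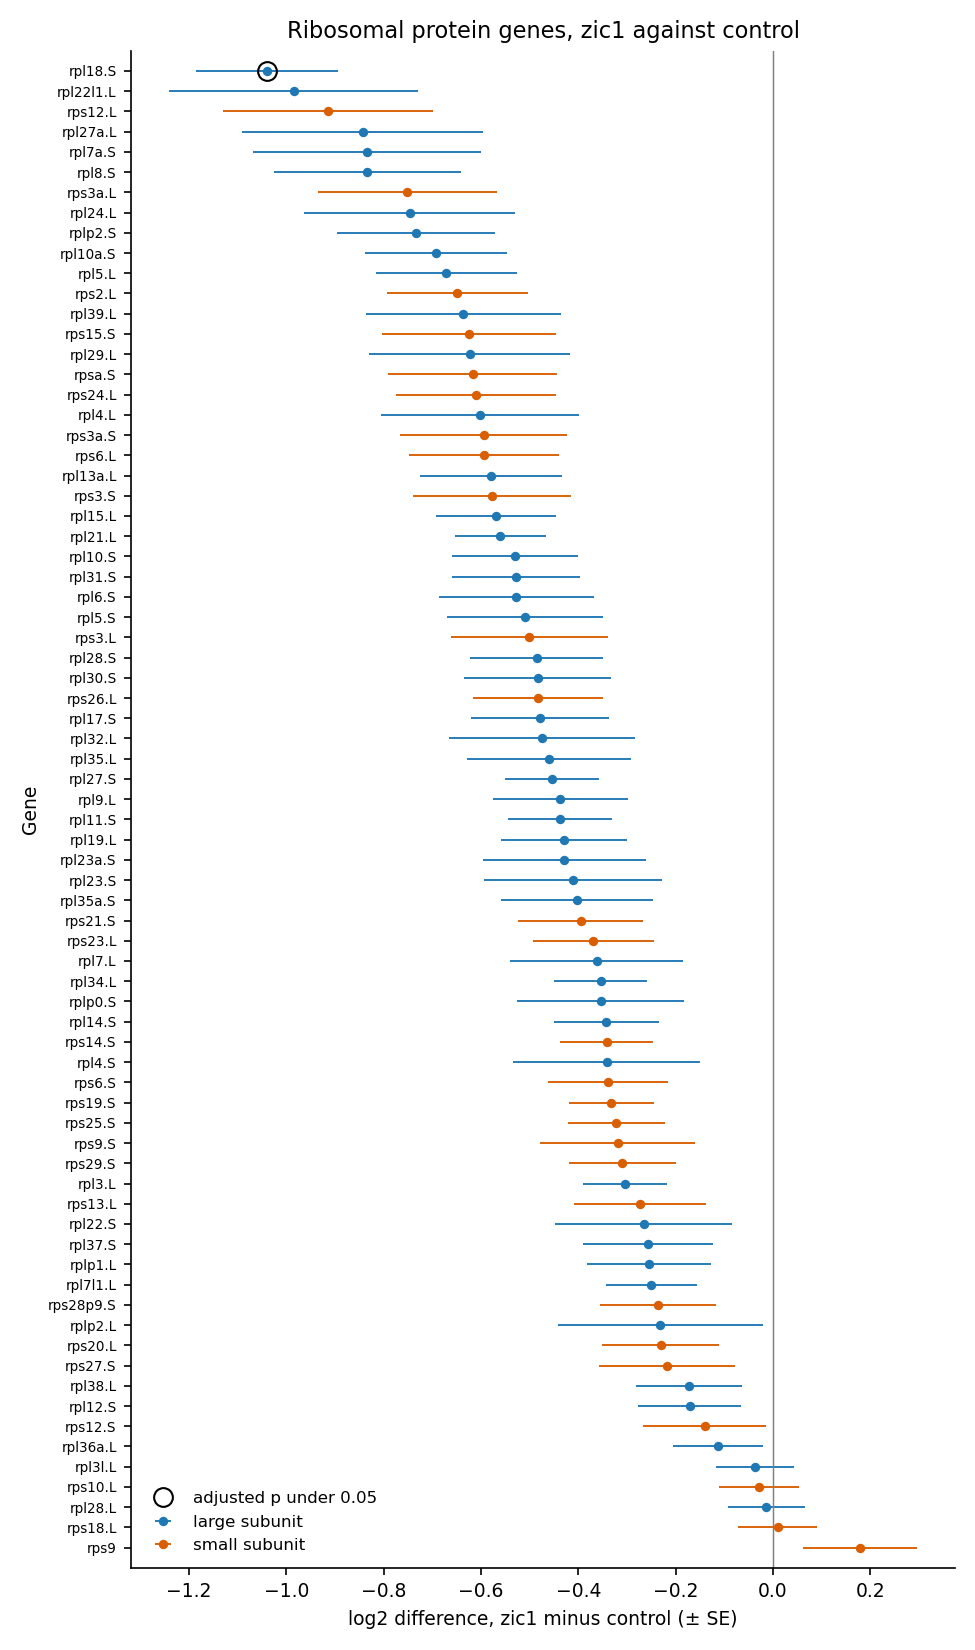
Log2 difference, zic1 minus control (x axis), for each of the 74 genes (y axis), with bars of 1 SE from the limma fit. Blue is the large and orange the small subunit. The ring marks rpl18.S, past an adjusted p of 0.05. The points run from -1.04 for rpl18.S to 0.18 for rps9.

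In the small subunit, 25 of 27 genes had a negative difference, against 56.1% of all genes, with a range of -0.91 to 0.18 and a median of -0.34. In 19 both zic1 arrays lay below the controls, against 24.8% of all genes. Adjusted p reached 0.0809 at the lowest, so 0 passed (limma, 18 lower and 0 higher at an unadjusted p under 0.05, against 13.7% lower of all genes). The lowest was rps12.L, at 0.532 and 0.766 with zic1 against 1.00, 1.44 and 1.21 in the controls (-0.91 ± 0.22, adjusted p = 0.0903, limma). Every zic1 value lay under every control, and the zic1 pair spanned as much as the controls did. Rps2.L, at the entry of the mRNA channel, read 0.629 and 0.801 against 1.00, 1.23 and 1.12 (-0.65 ± 0.14, adjusted p = 0.0809, limma).

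Rps3a.L differed by -0.75 ± 0.18, rps15.S, whose tail reaches the decoding site, by -0.63 ± 0.18, and rps24.L by -0.61 ± 0.16, with adjusted p of 0.0974, 0.120 and 0.112 (limma). Rpsa.S, first described as a precursor of a laminin receptor, read 0.702 and 0.883 with zic1 against 1.00, 1.30 and 1.35 in the controls (-0.62 ± 0.17, adjusted p = 0.118, limma). Rps6.L, the protein that S6 kinases phosphorylate under growth signals, read 0.668 and 0.844 against 1.00, 1.29 and 1.13 (-0.59 ± 0.15, adjusted p = 0.107, limma). In these 5 genes too the zic1 arrays stayed below all controls.

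Rps19.S, whose human counterpart is the gene most often mutated in Diamond-Blackfan anaemia, read 0.797 and 0.847 with zic1 against 1.00, 1.103 and 1.00 in the controls (-0.33 ± 0.09, adjusted p = 0.109, limma). Rps14.S, whose human counterpart lies in the deletion behind a related anaemia, read 0.821 and 0.885 against 1.00, 1.101 and 1.14 (-0.34 ± 0.10, adjusted p = 0.117, limma). Rps26.L, at the exit of the mRNA channel, read 0.700 and 0.848 against 1.00, 1.03 and 1.21 (-0.48 ± 0.13, adjusted p = 0.116, limma). All 3 had every zic1 value under every control, with control replicate 1 the lowest control in each.

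Rps9, whose symbol carries no copy suffix, and rps18.L had differences above 0. Rps9 read 1.11 and 1.00 with zic1 against 0.823, 0.979 and 1.00 in the controls (0.18 ± 0.12, adjusted p = 0.425, limma). It was the 1 member with both zic1 arrays above the controls, with 1.003 against 1.00 at the nearest. Rps9.S, a gene listed apart and read by 1 probe set whose ID ends in _x_at, differed by -0.32 ± 0.16 (adjusted p = 0.307, limma). Rps18.L lay between 0.948 and 1.02 on all arrays (0.01 ± 0.08). Rps10.L differed by -0.03 ± 0.08, as the mean of probe sets at -0.22 (letter A) and 0.17 (letter S). Rps28p9.S, whose symbol is that of a human pseudogene of RPS28, differed by -0.24 ± 0.12 (adjusted p = 0.309, limma), with its 4 probe sets between -0.34 and 0.00.

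Xenopus laevis is allotetraploid, and the suffixes .L and .S name the 2 copies of a gene, which can be so alike in sequence that a short probe reads both. Of the members, 36 were .L and 37 .S copies, and 8 genes had both copies measured apart. In rps12 the .L copy differed by -0.91 and the .S copy by -0.14. Each was read by 1 probe set, whose ID holds the letter S before its last number for rps12.L and A for rps12.S. Member probe sets with the letter A had a median of -0.18 and those with S a median of -0.46. Those with A ran from -0.99, in rpl22l1.L, to 0.03, and those with S from -1.04 to 0.18. Rps12.S read 0.883 and 1.04 with zic1 against 0.984, 1.19 and 1.00 in the controls. As in rps12.L, zic1 replicate 1 was the lowest array and control replicate 2 the highest, over a narrower range. The difference between the copies, S minus L, was 0.77 ± 0.15 on the log2 scale (adjusted p = 0.0533, limma over 1017 gene pairs, of which 2.26% passed).

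Rpl28 ran the other way, with -0.49 ± 0.14 for rpl28.S against -0.01 for rpl28.L (S minus L -0.47 ± 0.14, adjusted p = 0.126, limma). Here rpl28.L was read by a probe set with the letter A and rpl28.S by a probe set with the letter S. Rpl28.S read 0.695 and 0.839 with zic1 against 1.00, 1.22 and 1.00 in the controls, with no overlap. Rplp2.S read 0.672 and 0.761 against 1.00, 1.19 and 1.42, and rplp2.L read 0.870 and 1.00 against 0.915, 1.44 and 1.00. Their differences were -0.73 ± 0.16 and -0.23 ± 0.21 (S minus L -0.50 ± 0.22, adjusted p = 0.254, limma). Only in rplp2.S were the 2 groups apart.

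The copies of rpl4 (S minus L 0.26 ± 0.19) and rps6 (0.26 ± 0.14) were next, with adjusted p of 0.469 and 0.361 (limma). Rpl4.S read 1.00 and 0.819 with zic1 against 0.998, 1.05 and 1.45 in the controls, one of the few members in which zic1 replicate 1 was not below zic1 replicate 2. Rps6.S differed by -0.34 ± 0.12 (adjusted p = 0.187, limma). This was the mean of a probe set with the letter S at -0.51 and one with the letter A at -0.17. Rps6.L was read by a probe set with the letter S (-0.59). The copies of rpl5, rps3a and rps3 were within 0.16, 0.16 and 0.08 of each other, less than 2 SE of those differences. None of the 8 pairs passed (limma, 2 at an unadjusted p under 0.05), a result that does not show that copies act alike. The 2 were rps12 and rpl28, in which gene copy and probe set letter cannot be told apart.

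**Figure D4:**
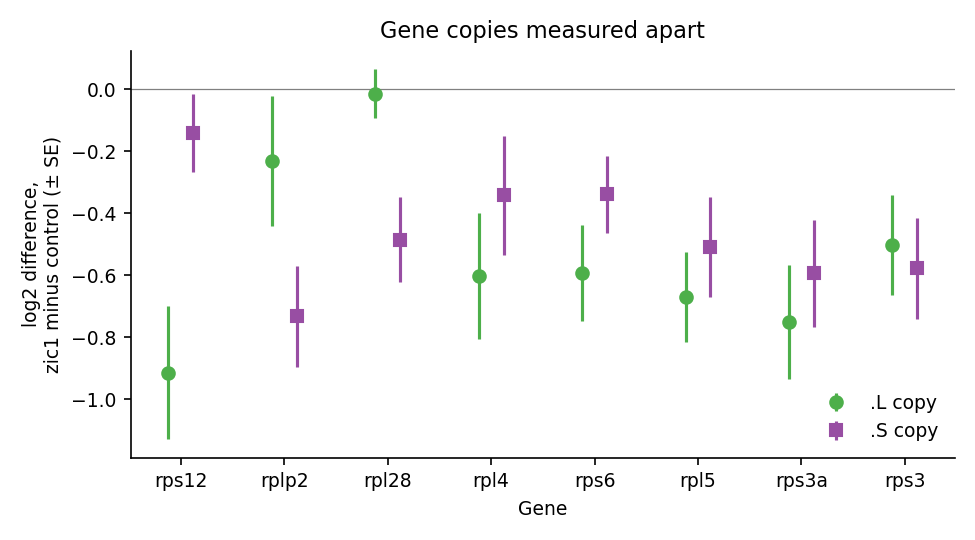
Log2 difference, zic1 minus control (y axis), for the .L copy (green circles) and the .S copy (purple squares) of the 8 genes with both copies measured (x axis), with bars of 1 SE from the limma fit. Rps12, at -0.91 and -0.14, has the copies farthest apart.

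Other genes of protein synthesis gave smaller medians with the same sign. Of 38 genes of the mitochondrial ribosome, a separate ribosome of bacterial type, the median was -0.24, with 31 negative and 21 wholly below the controls, against 56.1% and 24.8% of all genes, and 2 fell past the threshold, against 0.664%. These were mrpl48.S (-0.78 ± 0.12, adjusted p = 0.0462) and mrpl53.L (-0.76 ± 0.09, adjusted p = 0.0295; both limma), named after their values were seen. The median was -0.22 for 59 genes with symbols of initiation, elongation and release factors, some of them kinases, methyltransferases or binding proteins of such factors (30 wholly below), and -0.14 for 65 genes of ribosome assembly (31 wholly below), and 0 of either list passed (limma, 22 and 21 lower and 1 and 4 higher at an unadjusted p under 0.05). Wholly above the controls were 4 of the translation factor genes, 10 of the assembly genes and 4 of the mitochondrial ribosome genes. Of all genes 24.8% were wholly below and 17.3% wholly above. At the unadjusted threshold 13.7% of all genes were lower, and 682 of 7530 were higher. Whether these lists differ from the cytosolic ribosomal genes was not tested.

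A further list held 20 genes whose mRNAs are known or likely to share the translational control of ribosomal proteins, or whose products work beside them, and it shared 11 of them with the translation factor list. Its median was -0.22. Of its genes 10 lay wholly below the controls, against 24.8% of all genes, and 1 wholly above, against 17.3%. Past the threshold were 0 (limma, 6 lower and 0 higher at an unadjusted p under 0.05, against 13.7% lower of all genes). Fau.L, which encodes a ribosomal protein fused to a ubiquitin-like one, read 0.801 and 0.897 with zic1 against 1.00, 1.20 and 1.06 in the controls (-0.35 ± 0.11, adjusted p = 0.147, limma). Eef1a1.S, the elongation factor that delivers tRNA, differed by -0.38 ± 0.14 (adjusted p = 0.191, limma), and the genes listed as eef1a1o.L and eef1a1o.S by -0.23 ± 0.10 and 0.04 ± 0.09 (adjusted p = 0.261 and 0.849, limma). The nucleosome assembly gene nap1l1 differed by -0.04 (nap1l1.L) and -0.01 (nap1l1.S), near the median of all genes.

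**Figure D5:**
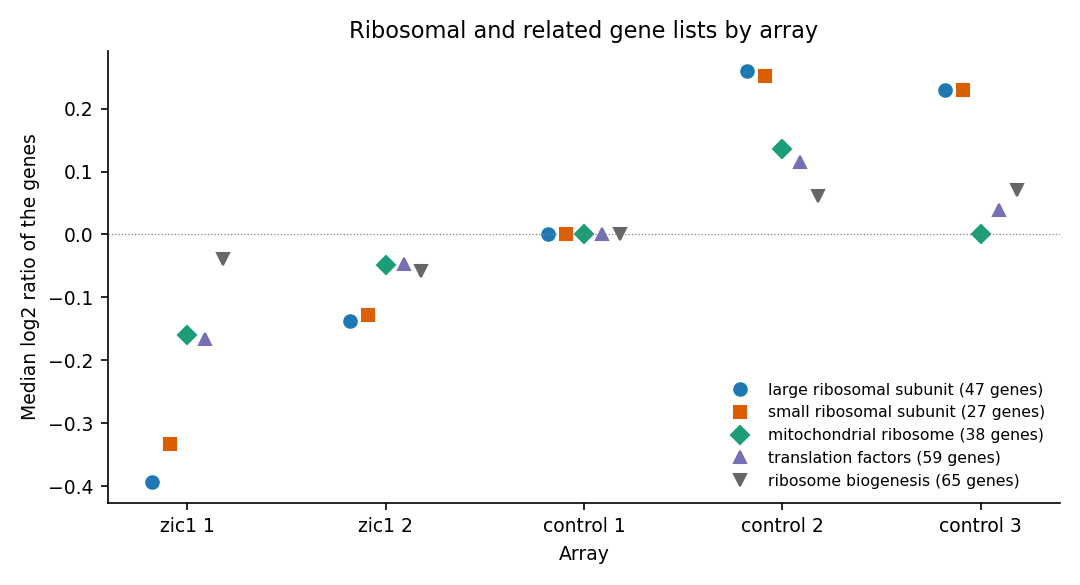
Median log2 ratio (y axis) of the genes of each list on each array (x axis): large (blue circles) and small (orange squares) cytosolic subunit, mitochondrial ribosome (green diamonds), translation factors (purple triangles) and ribosome biogenesis (grey inverted triangles). In zic1 replicate 1 the medians run from -0.39 for the large subunit to -0.04 for biogenesis. Points are set apart sideways for legibility.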

How the data were processed

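RNA from 5 samples (2 zic1, 3 control) was measured on Affymetrix arrays, with 2 µg of total RNA per sample, per the labels' protocols. Per the submitters' processing notes, the software was GCOS and RMA; roles and versions are not given in the sources used here. The deposited values are linear ratios: the median of every probe set over the 5 arrays is 1, as found from the values. Absolute signal was not kept, and precision is limited by how few arrays there are. Of 15572 probe sets, 81 Affymetrix controls and 1 without values in the zic1 arrays were left out. Probe sets were named from GEO's platform annotation, in which 2 symbols were replaced by the current one of the same gene ID.

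Log2 ratios were averaged over the probe sets of a gene and the groups fitted with limma 3.58.1 (lmFit and eBayes, under R 4.3.3), with Benjamini-Hochberg adjustment over all genes or all probe sets and a threshold of 0.05. The copies were compared in the same way on S minus L per array. Named genes were members past the threshold, the 6 lowest and 3 highest of each subunit, stalk genes and rpsa, the 5 pairs of copies farthest apart and paralogues, with others added for their roles after their values were seen. Members, lists and array sets were chosen with earlier results of these data known. Alternatives covered scaling, weights, blocks, the prior, a pseudocount, probe set choice and each array left out.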

Additional observations from a re-analysis of the deposited data

How the results depend on the processing

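The negative medians of both subunits kept their sign under all alternatives. They ran from -0.58 to -0.32 (large) and from -0.49 to -0.29 (small) with single arrays left out, the small subunit moving by more than the array spread without zic1 replicate 2, and were -0.23 and -0.17 with log2(value + 1), which compresses ratios. Members wholly below the controls numbered 55 of 74 under each alternative with all arrays (53 of 72 without _s_at and _x_at probe sets), against 24.6% to 25.3% of all genes, and 55 to 68 with single arrays left out, against 28.9% to 36.9%. Single-gene calls did not hold. Members past the threshold (limma) numbered 5 genes and 3 probe sets with array weights, against 1 and 1 in the main fit. Of all genes 3.94% passed as lower with array weights, against 0.664% in the main fit. With equal spread per array or the array sets as a block, 0 member genes and 0 member probe sets passed. There 50 and 55 member genes were lower at an unadjusted p under 0.05 (limma). Of all 7530 genes 1686 and 1756 were under it, in either direction. The probe set of rpl18.S also missed, leaving 0, with quantile normalization, the robust prior, log2(value + 1) and without _s_at and _x_at probe sets (adjusted p = 0.0534, 0.0551, 0.0508 and 0.0504, limma). With a single control left out, 0 member genes and 0 member probe sets passed as lower (limma). At an unadjusted p under 0.05, 30 to 60 member genes were then lower (limma). Of all 7530 genes 1267 to 1959 were under it, in either direction. Without zic1 replicate 1 or 2 a lone zic1 array is assumed to vary like the controls. The median difference of the members was then -0.31 and -0.57. With the replicate block (1 residual degree of freedom) 44 member genes and 52 member probe sets passed as lower, against 11.4% of all genes, and 1398 genes and 2692 probe sets passed in either direction. Same-numbered arrays deviated together (correlations 0.32 and 0.28), but 2 pairs do not establish a pairing. Over the whole table the 219 probe sets and 145 genes became 109 probe sets with quantile normalization, 0 and 0 with equal spread per array (3188 and 1686 unadjusted), 935 and 585 with array weights, 37 and 56 with the array sets as a block, and 0 to 207 probe sets and 0 to 220 genes with single arrays left out (limma). Named genes near 0 changed sign with single arrays left out: rpl28.L (-0.037 to 0.018), rpl3l.L (-0.058 to 4.3e-06), rps10.L (-0.068 to 0.011) and rps18.L (-0.036 to 0.056, and -4.8e-05 with the array sets as a block). The difference between the rps12 copies, whose alternatives were added after its value was seen, passed with array weights (adjusted p = 0.0184), the array sets as a block (0.0453), the replicate block (9.9e-04) and without control replicate 3 (0.0393), over a range up to 0.462 (limma).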

Other observations

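Probe sets that the annotation ties to several genes were outside the rule. Of these, 14 carried symbols of ribosomal proteins alone, mostly both copies of 1 gene. Their median log2 difference, zic1 minus control, was -0.46, with 13 of 14 wholly below the controls, against 19.4% of all probe sets, and 0 past the threshold (limma, 11 lower and 0 higher at an unadjusted p under 0.05, against 10.3% lower of all probe sets). Their median ratio was 0.741 and 0.932 with zic1 against 1.00, 1.25 and 1.20 in the controls, the same order of arrays as in the single-symbol members.

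Probe sets of 1 gene did not always give 1 value. Of 14 members with several probe sets, the differences were farthest apart in rpl34.L (-0.62 and -0.09) and rps27.S (-0.50 to -0.02, 4 probe sets), and coincided in rps3a.L (-0.75 in both). Probe set IDs on this array hold the letter A or S before their last number. The 14 member probe sets with A had a median of -0.18 and the 80 with S a median of -0.46, while over all probe sets the medians were 0.01 and -0.02. Member probe sets of both letters ranged widely, from -0.99 to 0.03 with A and from -1.04 to 0.18 with S. This split between the medians was noticed in the values and was not tested.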
